A study of Homo sapiens with 10 samples.

Results

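Natural antisense genes, whose symbols carry the name of a neighbouring gene and the suffix -AS, were followed in RNA-seq of HEK293 cells in which nuclear poly(A) tail extension had been impaired. The 134 entries described here were chosen by name and by measured level. They are the autosomal entries of the gene expression table whose symbol ends in -AS or in -AS and a digit, with a mean of at least 1 FPKM (fragments counted per transcript length and per sequencing depth) in any of 5 groups, leaving out EPB41L4A-AS1 and symbols that start with LINC. They are 134 of the 30809 entries of the table, carry 129 distinct antisense symbols and lie on 21 chromosomes. Of 414 autosomal -AS entries, the other 280 stayed below 1 FPKM in each group and are not described further, and 77 of those were listed at 0 throughout.

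The study sequenced polyadenylated RNA from 10 samples, 2 libraries in each of 5 groups. The labels give all cells as HEK293, a human embryonic kidney line, and the methods use a more specific line name for the cells that received the transgene. siPAP cells had received siRNAs against PAPα and PAPγ, the enzymes encoded by PAPOLA and PAPOLG, for 3 days, and both total RNA and nuclear RNA were taken. LALA nuclear RNA came from cells with an integrated transgene for PABPN1, a poly(A) binding protein of the nucleus, with the mutations L119A and L136A under a tetracycline-responsive promoter, with doxycycline taken out of the medium 3 days before harvest. Control total and control nuclear RNA completed the set. Nuclear RNA was the part that a detergent left insoluble, so some soluble nuclear material was lost. The study describes its controls as the untreated parental line. Effects of the knockdown and of siRNA transfection therefore cannot be told apart, nor can those of LALA, of making a stable line and of doxycycline removal.

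Antisense genes are transcribed from the strand opposite to a neighbouring gene, here called the sense partner, often from the same promoter region in the other direction. Their RNAs are mostly noncoding, spliced and polyadenylated like mRNAs, and many stay in the nucleus at low levels. PABPN1 binds growing poly(A) tails and stimulates PAPα and PAPγ, which add the adenosines, and tails made this way can mark nuclear RNAs for decay by the exosome.

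The deposited table holds 1 mean per group and no value per library, so no error or test could be computed here for any entry. The authors' own p-values in the table were not used. Throughout, a ratio is the log2 of 2 group means, and an entry was called higher or lower when the means differed at least 2-fold, the larger mean was at least 1 FPKM and neither was 0. A call is therefore a statement about size, with no check against the spread between replicates. PAPOLA had a mean of 11 FPKM in siPAP total against 79.3 in control total RNA, and 11.2 in siPAP nuclear against 61.7 in control nuclear RNA. PAPOLG had 3.64 in siPAP total against 12.2 in control total RNA, and 4.46 in siPAP nuclear against 10.6 in control nuclear RNA. The entry that merges PABPN1 with BCL2L2 had 162 FPKM in LALA nuclear against 89.1 in control nuclear RNA. VIM, KRT8 and KRT18 were between 164 and 352 FPKM in each group, and markers of blood (PTPRC, HBB), liver (ALB), fibroblasts (COL1A2) and endothelium (PECAM1, CDH5) were all at 0.0896 FPKM or below. Kidney and neuronal markers were uneven, with LHX1 between 1.66 and 2.30 FPKM and NEFL between 9.25 and 19.3, while PAX2 and NEFM were under 1 FPKM in each group. In RNA of whole cultures, fewer cells with a transcript and less transcript per cell cannot be told apart.

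The genes called higher in each of the 3 treatment comparisons (siPAP over control in total RNA, and siPAP and LALA each over control in nuclear RNA) are described first. There were 6 such entries of the 131 with all 3 ratios, against 3.11% of all autosomal entries at the same level, a share near the background, and 5 of them are described, ZNF582-AS1, PAN3-AS1, FRMD6-AS1, SETD5-AS1 and ZEB1-AS1. SETD5-AS1 is now named THUMPD3-AS1 and ZNF582-AS1 is ZNF582-DT. SETD5 encodes a chromatin-associated SET domain protein, ZEB1 a repressor of epithelial genes, and PAN3 a subunit of the PAN2-PAN3 deadenylase, which shortens poly(A) tails in the cytoplasm. The promoter windows of SETD5-AS1, ZEB1-AS1 and PAN3-AS1 are given as examples of genes that differed in the same direction, from 250 bases before to 50 bases after the start, on the minus strand of RefSeq's GRCh38.p14 (chr3:9396574-9396873, chr10:31319046-31319345 and chr13:28139125-28139424), written 5′ to 3′ with CG dinucleotides in capitals.
SETD5-AS1: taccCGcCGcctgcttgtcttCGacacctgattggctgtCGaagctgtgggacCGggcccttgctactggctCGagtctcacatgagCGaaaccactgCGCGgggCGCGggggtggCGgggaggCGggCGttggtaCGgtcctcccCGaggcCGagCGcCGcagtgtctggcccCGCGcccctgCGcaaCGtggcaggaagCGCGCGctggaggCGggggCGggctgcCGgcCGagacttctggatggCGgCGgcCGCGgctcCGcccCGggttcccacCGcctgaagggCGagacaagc
ZEB1-AS1: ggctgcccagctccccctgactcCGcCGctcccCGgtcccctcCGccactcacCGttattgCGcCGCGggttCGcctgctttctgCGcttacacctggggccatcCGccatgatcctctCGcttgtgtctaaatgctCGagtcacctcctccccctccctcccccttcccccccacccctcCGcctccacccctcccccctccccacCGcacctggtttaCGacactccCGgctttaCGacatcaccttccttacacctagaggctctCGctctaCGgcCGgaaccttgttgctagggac
PAN3-AS1: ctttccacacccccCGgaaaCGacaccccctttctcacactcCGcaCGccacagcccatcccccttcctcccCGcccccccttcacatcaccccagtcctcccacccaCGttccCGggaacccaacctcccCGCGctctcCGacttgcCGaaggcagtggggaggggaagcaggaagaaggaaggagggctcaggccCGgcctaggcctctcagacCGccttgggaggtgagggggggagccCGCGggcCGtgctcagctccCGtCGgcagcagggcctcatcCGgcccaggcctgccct

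These windows hold 38, 21 and 19 CG dinucleotides. Promoter windows were found for 102 of the 134 members and were 97 different windows, with a median of 23 CG, against a median of 14 over all 35116 RefSeq promoter windows of the same length. At least 10 CG were present in 85.6% of the members' windows and in 56.4% of all windows. The letters AATAAA (the polyadenylation signal, searched on both strands) stood in 14 of the 97 windows, 14.4%, and in 17.4% of all windows. The letters GTAAGT (a 5′ splice site, both strands) stood in 5 windows, 5.15%, and in 6.33% of all windows. The 22 windows of members called higher in at least 1 treatment comparison had a median of 22 CG. Members as a whole thus had more CG in these windows than promoters at large, whereas the share with either of these motifs was close to that of all promoters. The members had passed the level rule and the RefSeq windows were not filtered by level. Whether this bears on the CG difference was not tested.

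To show annotated 3′ ends, the last 50 bases of the annotated canonical transcript are shown for the same 3 genes, read from GENCODE transcripts on GRCh37, which is hg19, on the minus strand. The transcripts are those of SETD5-AS1 (chr3:9391373-9438338), PAN3-AS1 (chr13:28710980-28712330) and ZEB1-AS1 (chr10:31495207-31608620), with AATAAA or ATTAAA in capitals, written 5′ to 3′.
SETD5-AS1: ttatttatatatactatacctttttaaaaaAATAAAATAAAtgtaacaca
PAN3-AS1: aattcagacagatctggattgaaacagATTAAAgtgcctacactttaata
ZEB1-AS1: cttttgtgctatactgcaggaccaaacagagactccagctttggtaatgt

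SETD5-AS1 has AATAAA, PAN3-AS1 has ATTAAA and ZEB1-AS1 has neither in this stretch. The annotated ends of SETD5-AS1 and ZEB1-AS1 lie outside the spans of their measured entries, so these stretches need not be the ends of the RNA sequenced. Among the 124 annotated members' transcripts, 62 held AATAAA or ATTAAA on the transcript's own strand, 50%, against 46.0% of 18702 lncRNA genes and 77.4% of 19892 protein-coding genes. Of the 32 transcripts of members called higher in at least 1 treatment comparison, 15 held either signal, 46.9%. For 81 members the annotated end lay within the span of the entry, and 45 of these held either signal, 55.6%. The members' shares were nearer that of lncRNAs than that of protein-coding genes.

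The levels of these entries differed widely, although each was called higher in all 3 comparisons. SETD5-AS1 (chromosome 3, 9404717 to 9439198 of hg19, 3 exons) had a mean of 41.7 FPKM in siPAP total against 15.7 in control total RNA, and 54.9 in siPAP nuclear and 47.6 in LALA nuclear against 19.4 in control nuclear RNA, with log2 ratios of 1.40, 1.5 and 1.30. Each treated mean was above both control means. ZEB1-AS1 (chromosome 10, 31605457 to 31608024, 2 exons) had 17 FPKM in siPAP total against 7.49 in control total RNA, and 20.6 in siPAP nuclear and 18.9 in LALA nuclear against 8.17 in control nuclear RNA (log2 1.18, 1.33 and 1.21). PAN3-AS1 (chromosome 13, 28710980 to 28869475, 1 exon) had 2.64 FPKM in siPAP total against 1.25 in control total RNA, and 3.93 in siPAP nuclear and 5.42 in LALA nuclear against 1.14 in control nuclear RNA (log2 1.08, 1.78 and 2.25). PAN3-AS1 had the wider gap in both nuclear comparisons, whereas the ratios of ZEB1-AS1 were much the same in all 3.

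FRMD6-AS1 and ZNF582-AS1 were under 1 FPKM in both controls, so each entered the set only through treated groups and its difference was in part fixed by the way it was chosen. FRMD6-AS1 (chromosome 14, 51921230 to 52197444), beside the gene of FRMD6, a FERM domain protein upstream of Hippo signalling, had 1.53 FPKM in siPAP total against 0.533 in control total RNA, and 1.62 in siPAP nuclear and 1.94 in LALA nuclear against 0.570 in control nuclear RNA (log2 1.52, 1.5 and 1.76). ZNF582-AS1 had 1.27 FPKM in siPAP total against 0.507 in control total RNA, and 1.68 in siPAP nuclear and 1.87 in LALA nuclear against 0.374 in control nuclear RNA (log2 1.33, 2.17 and 2.32). A second entry of ZNF582-AS1, with the same span (chromosome 19, 56905045 to 56938320), had 3.83 FPKM in siPAP total against 3.89 in control total RNA, and 4.22 in siPAP nuclear and 5.32 in LALA nuclear against 4.30 in control nuclear RNA. The 2 entries of this gene thus differed, and the higher call belonged to the less abundant one.

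Such double entries can be checked by their assembly numbers, which on each chromosome run first through genes of one strand and then through those of the other. Of 16826 protein-coding entries with a single symbol, 94.5% were numbered in the block of their annotated strand. Of the 129 members with a known strand, 121 were numbered with their own strand and 8 with the other. The less abundant entry of ZNF582-AS1 is among the 8, as are entries of BCDIN3D-AS1, BDNF-AS, GNG12-AS1, IQCH-AS1 and MRPL23-AS1 and both of the less abundant entries of TTC28-AS1. Without the 8, chosen after the numbers were seen, 5 entries were called higher in all 3 treatment comparisons. Libraries were made with a stranded kit, but no source used here says how strand entered mapping and counting, and reads of the overlapping partner cannot be told apart with certainty in any entry.

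**Figure D1:**
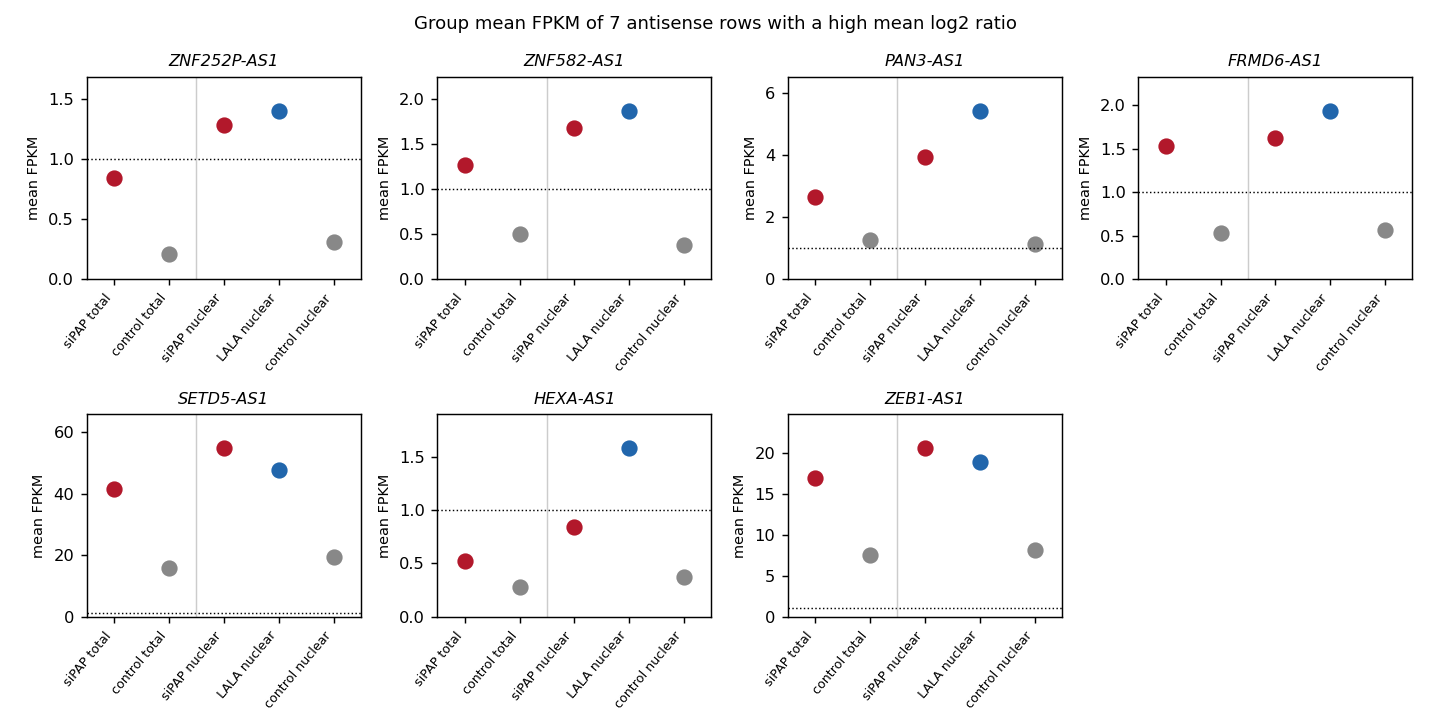
Group mean FPKM (linear vertical axes that start at 0, 1 point per group, no error because the table holds means only) of 7 of the 8 entries with the highest mean log2 ratio over the 3 treatment comparisons. Red points are siPAP, blue LALA and grey control groups, the dotted line marks 1 FPKM, and in each panel the treated means stand above their own control mean, as for SETD5-AS1 with 41.7 against 15.7 FPKM in total RNA.

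HEXA-AS1 and ZNF252P-AS1, on the opposite strand from a lysosomal hexosaminidase gene and from a zinc finger pseudogene, were also among the 8 entries with the highest mean ratio. ZNF252P-AS1 had 0.840 FPKM in siPAP total against 0.210 in control total RNA, and 1.28 in siPAP nuclear and 1.40 in LALA nuclear against 0.309 in control nuclear RNA. Its log2 ratios were 2.00, 2.06 and 2.18, a mean of 2.08 and the highest of the set, but the first was not called because both total means were under 1 FPKM. HEXA-AS1 had 0.524 FPKM in siPAP total against 0.274 in control total RNA, and 0.843 in siPAP nuclear and 1.58 in LALA nuclear against 0.375 in control nuclear RNA, and passed only through LALA nuclear RNA. Of the 19 members under 1 FPKM in both controls, 13 were called higher in at least 1 treatment comparison, a count that follows in part from the level rule. The like share over all entries was not computed, so this count is not a result about antisense genes.

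In total RNA, siPAP cells had higher means than control cells for more antisense genes than they had lower ones. Of 134 members, 15 were called higher, against 5.12% of 13659 autosomal entries with the same level rule, and 2 were called lower, against 1.49%. The members' median log2 ratio was 0.23, and that of all entries was -0.05. Besides the entries named above, those called higher included MLLT4-AS1 (now AFDN-DT, beside the gene of the junction protein afadin) with 2.85 against 1.11 FPKM, and ASH1L-AS1, opposite a histone methyltransferase gene, with 4.5 against 1.98. DICER1-AS1, opposite the gene of the microRNA processing enzyme, had 4.6 FPKM in siPAP total against 2.05 in control total RNA, GABPB1-AS1 had 9.97 against 4.51 and ZNF790-AS1 13.7 against 6.61. At a 1.5-fold threshold 32 members were higher, against 9.06% of all entries, and 8 were lower, against 6.73%. At 3-fold, 0 were higher (2.32% of all entries) and 1 was lower (0.278%), so the differences in total RNA were moderate in size.

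In nuclear RNA the siPAP comparison gave a similar picture with more calls in both directions. Of 131 members with a ratio, 19 were called higher, against 6.62% of 13680 entries, and 6 lower, against 1.98%, with a median log2 ratio of 0.29 beside -0.08 over all entries. Of these 19, 11 were also called higher in total RNA of siPAP cells. Both comparisons come from the same knockdown cells and the like share over all entries was not computed, so this overlap is not a result about antisense genes. FOXD2-AS1, beside a forkhead factor gene, had 5.20 FPKM in siPAP nuclear against 2.26 in control nuclear RNA, and MYLK-AS1, at the myosin light chain kinase gene, had 4.33 against 1.81. KANSL1-AS1, opposite the gene of a subunit of the NSL chromatin complex, had 1.49 against 0.390 and passed the level rule only through this group. At 1.5-fold, 44 members were higher, against 10.9% of all entries, and 9 lower, against 7.96%. At 3-fold, 4 were higher (3.27% of all entries) and 0 lower (0.424%). These 4 were ZNF252P-AS1, PAN3-AS1, KANSL1-AS1 and the less abundant entry of ZNF582-AS1.

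In LALA nuclear RNA, 22 of 132 members were called higher, against 7.63% of 13688 entries, and 2 called lower, against 0.628%. The median log2 ratio was 0.29 for the members and -0.16 over all entries, and relative to that shift the members' median was 0.45. BDNF-AS, opposite the gene of a neurotrophin, had 5.65 FPKM in LALA nuclear against 2.38 in control nuclear RNA. The less abundant entry of BDNF-AS, numbered with the other strand, had 1.64 against 1.06 and was not called. CEBPA-AS1 (now CEBPA-DT, beside a C/EBP transcription factor gene) had 4.39 against 2.08. GAS5-AS1 had 3.02 FPKM in LALA nuclear against 1.44 in control nuclear RNA, SDCBP2-AS1 5.95 against 2.63, in an entry merged with FKBP1A-SDCBP2, and KLHL7-AS1, which passed the level rule only through this group, 1.11 against 0.273. Called higher in LALA nuclear RNA and in no siPAP comparison were 11 of the 131 members with all 3 ratios. Over all entries with all 3 ratios these were 412 of 13623, 3.02%. The difference between LALA and siPAP was not tested. With 1 FPKM in both controls, 12 members were higher in LALA nuclear and 12 in siPAP nuclear RNA, so the larger count in LALA depended on the level rule. At 1.5-fold, 43 members were higher, against 11.4%, and 8 lower, against 4.96%. At 3-fold, 7 were higher (4.45% of all entries) and 0 lower (0.161%).

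**Figure D2:**
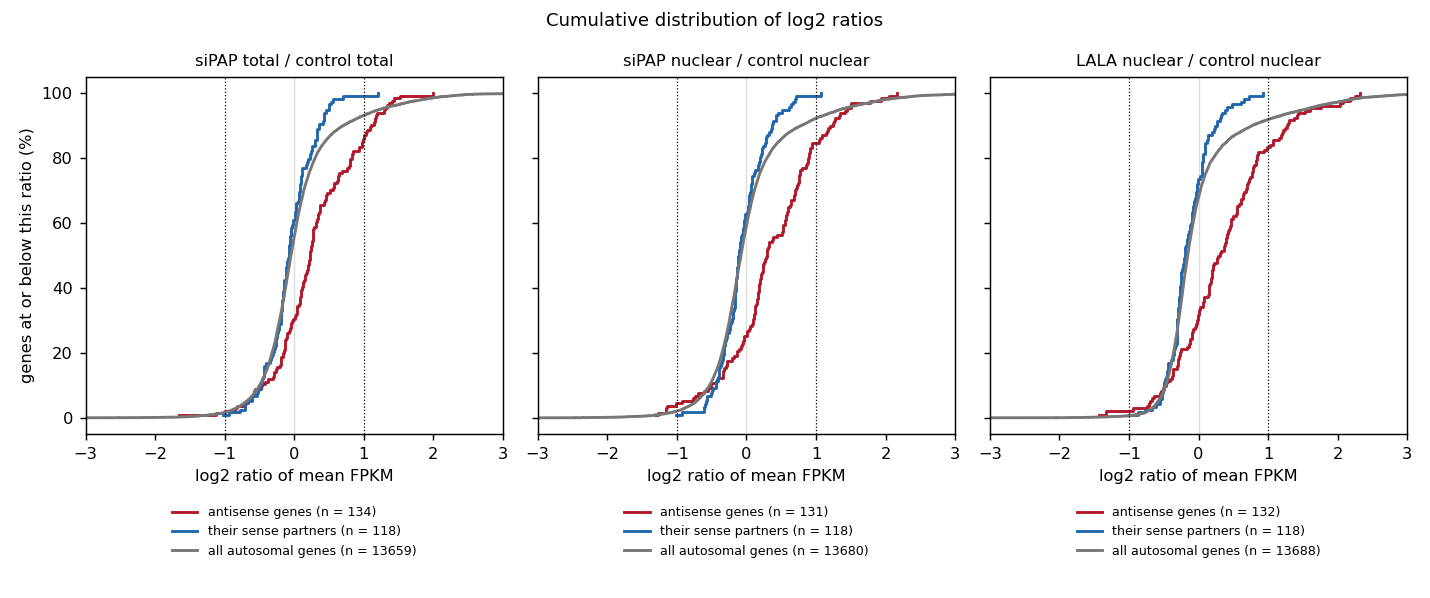
Cumulative share (vertical axis, percent) of entries at or below each log2 ratio of mean FPKM (horizontal axis) in the 3 treatment comparisons, with antisense genes in red, their sense partners in blue and all autosomal entries in grey, and dotted lines at 2-fold. The red curves lie to the right of the others in the middle of each panel, with medians of 0.23, 0.29 and 0.29 against -0.05, -0.08 and -0.16 for all entries.

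The level rule bears on these counts because a member that reached 1 FPKM only where it was high had to differ. Of the 134, 89 were at 1 FPKM or more in each of the 5 groups and 96 in both controls. Another 15 reached that level in a single group, of which 7 did so in LALA nuclei, 4 in siPAP nuclei, 3 in control nuclei and 1 in siPAP total RNA. Among the 96 present in both controls, 11 were higher and 1 lower in total RNA of siPAP cells, 12 and 5 in their nuclear RNA, and 12 and 2 in that of LALA cells. Entries of all kinds at this level in both controls were higher in 2.34%, 2.77% and 2.41% and lower in 1.54%, 1.84% and 0.604%. Just inside the level rule were SLFNL1-AS1 at 1.01 FPKM in its highest group and ADAMTS9-AS2 and NDUFB2-AS1 at 1.02. Just outside were an entry of BCDIN3D-AS1 at 0.975 FPKM, WT1-AS at 0.969 and PITRM1-AS1 at 0.951.

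Over the 131 members with all 3 ratios, 66 were above 1-fold in each treatment comparison, against 20.9% of 13623 entries. Called higher in each were 6, against 3.11%, and called lower in each were 0, against 0.0514%. The number below 1-fold in each was 15, for which no share over all entries was computed. Both nuclear comparisons use the same control nuclear means, so their ratios are not independent of each other. Across genes, which are not replicates, the ratios of siPAP total and siPAP nuclear RNA had a Pearson r of 0.74 and a Spearman rho of 0.73 over 131 members (0.83 and 0.83 over 13627 entries), from the same knockdown cells. The ratios of siPAP total and LALA nuclear RNA, which share no group, had an r of 0.44 and a rho of 0.41 over 132 members (0.62 and 0.48 over 13632 entries).

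**Figure D3:**
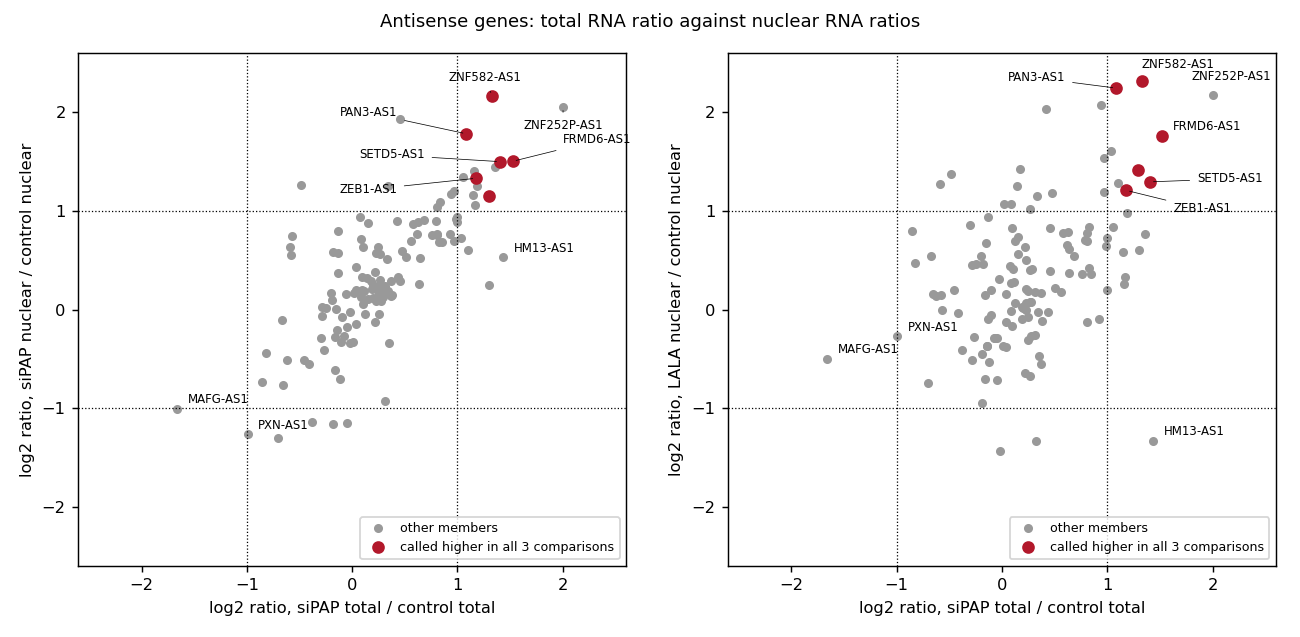
Each point is an antisense entry, with its log2 ratio in total RNA of siPAP cells on the horizontal axis and its log2 ratio in siPAP nuclear (left) or LALA nuclear RNA (right) on the vertical axis, and dotted lines at 2-fold. The 6 entries called higher in all 3 comparisons, in red and 5 of them named, lie in the upper right of both panels, and HM13-AS1 is the point at the lower right of the LALA panel with 1.44 in total RNA and -1.33 in LALA nuclear RNA.

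The 5 members whose LALA and siPAP nuclear ratios differed most did so in either direction. HM13-AS1, opposite the signal peptide peptidase gene, had 1.62 FPKM in siPAP total against 0.598 in control total RNA, and 1.08 in siPAP nuclear and 0.297 in LALA nuclear against 0.747 in control nuclear RNA. The entry of TTC28-AS1 called lower in LALA nuclear RNA was like it, with 2.42 FPKM in siPAP nuclear and 0.675 in LALA nuclear against 1.70 in control nuclear RNA. The most abundant entry of TTC28-AS1 had 22.1 FPKM in siPAP nuclear and 16.8 in LALA nuclear against 13.0 in control nuclear RNA, so this symbol pointed both ways. RPL34-AS1 (now RPL34-DT) had 1.51 FPKM in siPAP nuclear and 0.679 in LALA nuclear against 0.567 in control nuclear RNA. THAP7-AS1 had 1.17 and 2.59 against 1.43 and SLFNL1-AS1 0.349 and 1.01 against 0.580, in the same order of groups, and both were the higher in LALA.

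Fewer members were called lower than higher, 9 against 34 in at least 1 treatment comparison, and the like share over all entries was not computed. By comparison (siPAP total, siPAP nuclear, LALA nuclear) the members called lower were 1.49%, 4.58% and 1.52%. Of all entries 1.49%, 1.98% and 0.628% were called lower, so the members' shares were not below these. MAFG-AS1, at the gene of a small Maf transcription factor, was called lower in both siPAP comparisons, with 0.423 FPKM in siPAP total against 1.34 in control total RNA and 0.593 in siPAP nuclear against 1.19 in control nuclear RNA. PXN-AS1, opposite the paxillin gene, had 1.03 FPKM in siPAP nuclear against 2.47 in control nuclear RNA, and 1.78 in siPAP total against 3.54 in control total RNA, where its log2 ratio of -0.99 was just short of a call. Both had lower means in siPAP cells in either kind of RNA. In siPAP nuclear against control nuclear RNA, NEBL-AS1 had 1.09 against 2.43 FPKM, MED4-AS1 1.32 against 2.92, SGOL1-AS1 0.507 against 1.13 and CIRBP-AS1 0.560 against 1.38. Their sense genes encode nebulette, a Mediator subunit, shugoshin and a cold-inducible RNA binding protein. In LALA nuclear RNA the 2 lower calls were MRPL23-AS1, with 0.439 against 1.19 FPKM, and the entry of TTC28-AS1 given above. Both are numbered with the other strand, and without such entries the number of lower calls in LALA nuclear RNA was 0. DIAPH3-AS1 had 1.02 FPKM in siPAP total against 2.22 in control total RNA, but 5.67 in nuclei of siPAP cells and 4.38 in those of LALA cells, and it was listed at 0 in control nuclear RNA. A failed estimate in that group was not tested, and DIAPH3-AS1 has no ratio there. HLTF-AS1, listed at 0 in LALA nuclear and control nuclear RNA, and ZNF32-AS1, listed at 0 in siPAP nuclear RNA, were treated alike.

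The 8 most abundant antisense genes of control total RNA were not called in any treatment comparison. PCNA-AS1, at the gene of the replication clamp PCNA, had 334 FPKM in siPAP total against 380 in control total RNA, and 324 in siPAP nuclear and 222 in LALA nuclear against 303 in control nuclear RNA. PCNA itself had 284 FPKM in siPAP total against 299 in control total RNA. In nuclear RNA PCNA had 231 in siPAP and 160 in LALA against 226 in control cells. The strand of PCNA-AS1 was not matched, so its numbering could not be checked, and reads of PCNA in this entry cannot be told apart. The same holds for FBXO22-AS1, at 50.7 FPKM in control total RNA against 33.8 for FBXO22. C17orf76-AS1, now SNHG29, a host gene of small nucleolar RNAs in an entry merged with SNORD49B, had 278 FPKM in siPAP total against 270 in control total RNA, and 249 in siPAP nuclear and 242 in LALA nuclear against 217 in control nuclear RNA. FBXO22-AS1, FGD5-AS1, THAP9-AS1, CERS6-AS1, MAGI2-AS3 and WAC-AS1, the next in control total RNA, had between 20.1 and 50.7 FPKM there and log2 ratios between -0.41 and 0.55. SETD5-AS1, called higher in all 3 comparisons, was among the 8 most abundant in each of the other 4 groups. The members as a whole were low, with a median of 2.34 FPKM in siPAP total against 2.06 in control total RNA, and 2.57 in siPAP nuclear and 2.65 in LALA nuclear against 2.13 in control nuclear RNA. The medians over all autosomal entries at the level rule were between 10.2 and 10.9 FPKM.

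Nuclear and total RNA differed little for most members. In control cells 1 of 132 was called higher in nuclear than in total RNA, against 1.1% of 13660 entries, and 1 lower, against 0.476%, with a median log2 ratio of 0.07 (all entries -0.01). In siPAP cells 3 of 133 were higher, against 0.987% of 13678 entries, and 1 lower, against 0.366%. The nuclear lncRNAs MALAT1 and NEAT1 had log2 ratios of 0.32 and -0.27 between control nuclear and control total RNA. The mRNAs ACTB, GAPDH and RPL30 had -0.19, -0.39 and -0.52, so the contrast between the 2 kinds of RNA was small for them too. MALAT1 has no poly(A) tail according to the paper, which limits its use as a reference in polyadenylated RNA. From nuclear over total FPKM the paper scored MALAT1 as high and ACTB and RPL30 as lower, an order also seen here. ZEB2-AS1, which overlaps the start of the gene of the repressor ZEB2, stood out with 3.91 FPKM in control nuclear against 1.39 in control total RNA, and 6.56 in siPAP nuclear against 0.941 in siPAP total RNA. CRYM-AS1 had 0.533 against 0.176 FPKM in control nuclear and control total RNA, and CIRBP-AS1, SEC24B-AS1 and ARRDC3-AS1 had log2 ratios of 0.92, 0.92 and 0.85. At the other end, HOXD-AS2 had 0.943 FPKM in control nuclear against 2.25 in control total RNA and HOXB-AS3 0.752 against 1.46, both from HOX clusters, which encode the factors that pattern the body axis. UCKL1-AS1, UBAC2-AS1 and KANSL1-AS1 followed with -0.92, -0.88 and -0.79. In siPAP nuclear against siPAP total RNA, HOXB-AS3 had 1.81 against 1.05 FPKM and HOXD-AS2 1.64 against 2.04, so that the low nuclear ratio of HOXB-AS3 was seen in control cells and not in siPAP cells.

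Each antisense gene was set beside its sense partner to ask whether both strands moved together. A partner entry was found for 128 members, and in 123 pairs the partner reached 1 FPKM in any group. In control total RNA the antisense gene was below its partner in 108 of these 123 pairs, with a median level of 13.4% of the partner's FPKM. Of 118 different partner entries, 1 was called higher and 1 lower in total RNA of siPAP cells, 1 and 1 in their nuclear RNA, and 0 and 0 in that of LALA cells, with medians of -0.08, -0.11 and -0.20. Where the antisense gene was called higher (15, 18 and 20 pairs in the same order), the partner was called in 0 pairs of each comparison and lay within 1.5-fold in 14, 16 and 20 pairs. The median log2 ratios in those pairs were 1.18, 1.34 and 1.29 for the antisense genes and -0.12, -0.09 and -0.16 for the partners. Higher calls were rare among all 118 partners (0.847%, 0.847% and 0%) and among all entries at 1 FPKM in both controls (2.34%, 2.77% and 2.41%). The 0 calls in so few pairs are therefore not a result about these partners. The share of all entries within 1.5-fold was not computed. Across all pairs, the Pearson r between the 2 ratios was 0.01, 0.15 and 0.21 over 123, 120 and 121 pairs, a description across genes that share libraries.

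The partners of the leading genes were not called in any treatment comparison. SETD5 had 22.6 FPKM in siPAP total against 23.1 in control total RNA, and 21.1 in siPAP nuclear and 18.7 in LALA nuclear against 22.5 in control nuclear RNA. SETD5 was not higher in any treated group. ZEB1 had log2 ratios of -0.19, -0.24 and -0.19, PAN3 of -0.44, -0.50 and -0.17, and ZNF582 of -0.06, 0.08 and 0.31. FRMD6 was the lower one in siPAP cells, with 7.61 FPKM in siPAP total against 11.6 in control total RNA and 6.62 in siPAP nuclear against 10.1 in control nuclear RNA, and it had 9.96 in LALA nuclear RNA. Among the genes called lower, CIRBP also had lower means than in control cells, with 60.9 FPKM in siPAP total against 124 in control total RNA and 60.2 in siPAP nuclear against 121 in control nuclear RNA. CIRBP and CIRBP-AS1 were thus both called lower in siPAP nuclear RNA, while MAFG, in an entry merged with SIRT7, had 25.1 FPKM in siPAP nuclear against 15.7 in control nuclear RNA, opposite in direction to MAFG-AS1.

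**Figure D4:**
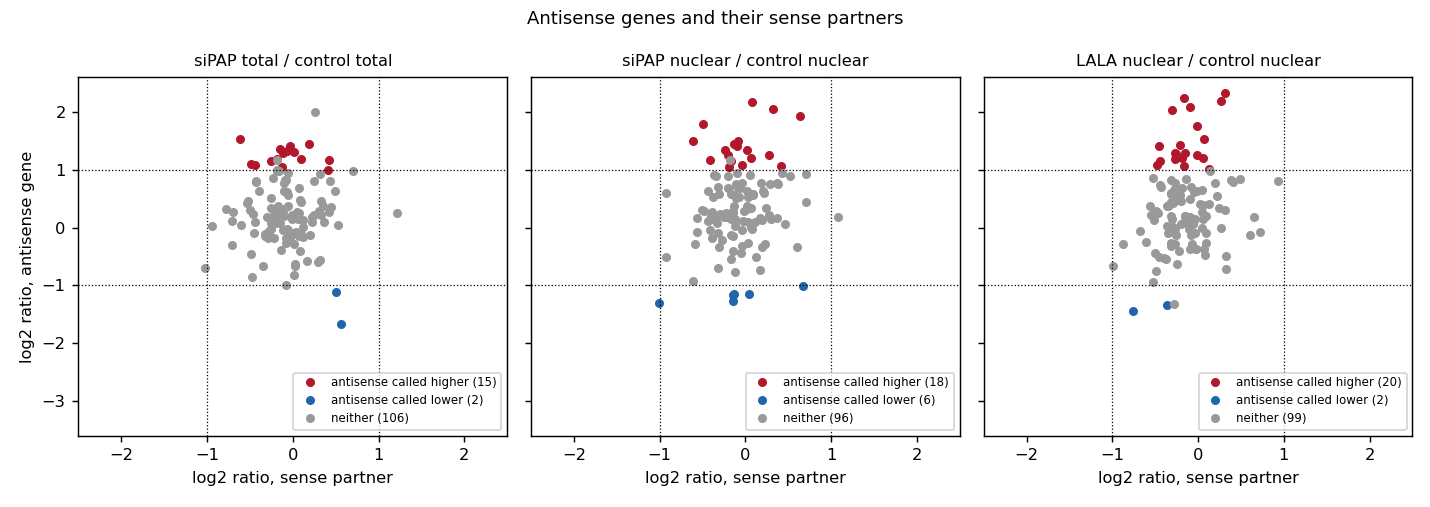
Log2 ratio of each antisense gene (vertical axis) against that of its sense partner (horizontal axis) in the 3 treatment comparisons, for pairs whose partner reached 1 FPKM in any group, with dotted lines at 2-fold. Red points, the 15, 18 and 20 pairs with the antisense gene called higher, lie within 2-fold on the horizontal axis, blue points are antisense genes called lower, and grey points beyond 2-fold on the vertical axis are entries under 1 FPKM in both groups.

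Members were grouped by where GENCODE places them on hg19. Annotated starts need not be those of the measured entries, as for ZEB1-AS1, whose annotated transcript reaches beyond its measured span at both ends. For 51, the annotated starts of the antisense gene and of the partner were within 1 kb of each other on opposite strands, for 72 the genes overlapped with starts further apart, 1 did not overlap and 10 were not matched. With starts within 1 kb, 8 of 51 were called higher in total RNA of siPAP cells, 10 of 50 in their nuclear RNA and 10 of 50 in that of LALA cells, and 0 were called lower in each. With overlapping genes and distant starts, 6 of 72, 6 of 70 and 9 of 71 were higher, and 1, 5 and 2 lower. The medians were 0.42, 0.54 and 0.38 for the first arrangement and 0.15, 0.21 and 0.19 for the second. All autosomal entries were higher in 5.12%, 6.62% and 7.63%. Another split, by whether any protein-coding gene starts on the opposite strand within 1 kb, gave no such contrast in nuclear RNA. With such a start, 9 of 76, 10 of 75 and 13 of 75 were higher, with medians of 0.29, 0.29 and 0.31, and without one 5 of 53, 8 of 51 and 8 of 52, with medians of 0.10, 0.30 and 0.32. The 14 members now renamed with the suffix -DT, for divergent transcript, had 4, 4 and 5 called higher, against 11 of 119, 15 of 116 and 17 of 117 of the members not so named. The difference between the arrangements was not tested, since genes are not replicates of a condition. Some calls with starts within 1 kb were of members under 1 FPKM in both controls, such as HEXA-AS1, KLHL7-AS1 and ZNF252P-AS1. These counts therefore follow in part from the level rule, and the split was not repeated among members at 1 FPKM in both controls.

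Single-exon members had the larger median ratios. The canonical transcript had 1 exon in 13 members, 2 in 33 and 3 or more in 83. Of the single-exon members, 2 were called higher in total RNA of siPAP cells, 4 in their nuclear RNA and 6 in that of LALA cells, with median log2 ratios of 0.63, 0.89 and 0.78. Of the 2-exon members, 6 of 33, 8 of 32 and 4 of 33 were higher, with medians of 0.23, 0.55 and 0.46, so in siPAP total RNA their share called, 18.2%, was above the 15.4% of single-exon members. Of the members with 3 or more exons, 6 of 83, 6 of 81 and 11 of 81 were higher, with medians of 0.22, 0.25 and 0.18. Other autosomal entries matched to GENCODE were higher in 8.02%, 10.4% and 8.02% with 1 exon. With 2 exons their shares were 4.24%, 5.57% and 5.35%, and with 3 or more 2.18%, 2.53% and 2.70%. The members' own shares with 3 or more exons were 7.23%, 7.41% and 13.6%. Medians of the other entries were 0.13, 0.07 and 0.03 with 1 exon and -0.08, -0.12 and -0.20 with 3 or more. CEBPA-AS1, FOXD2-AS1, HEXA-AS1, PAN3-AS1 and ZNF252P-AS1 are among the 6 single-exon members called higher in at least 1 comparison, and among the other 7 are ARHGAP5-AS1, with log2 ratios of -0.16, -0.28 and 0.15, and RHPN1-AS1, with -0.05, -0.17 and -0.29. HEXA-AS1 and ZNF252P-AS1 were under 1 FPKM in both controls, so their calls follow in part from the level rule. The split by exons was not repeated among members at 1 FPKM in both controls, and the difference between exon classes was not tested. The exon number belongs to the annotated transcript, which need not be the one assembled from these reads.

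**Figure D5:**
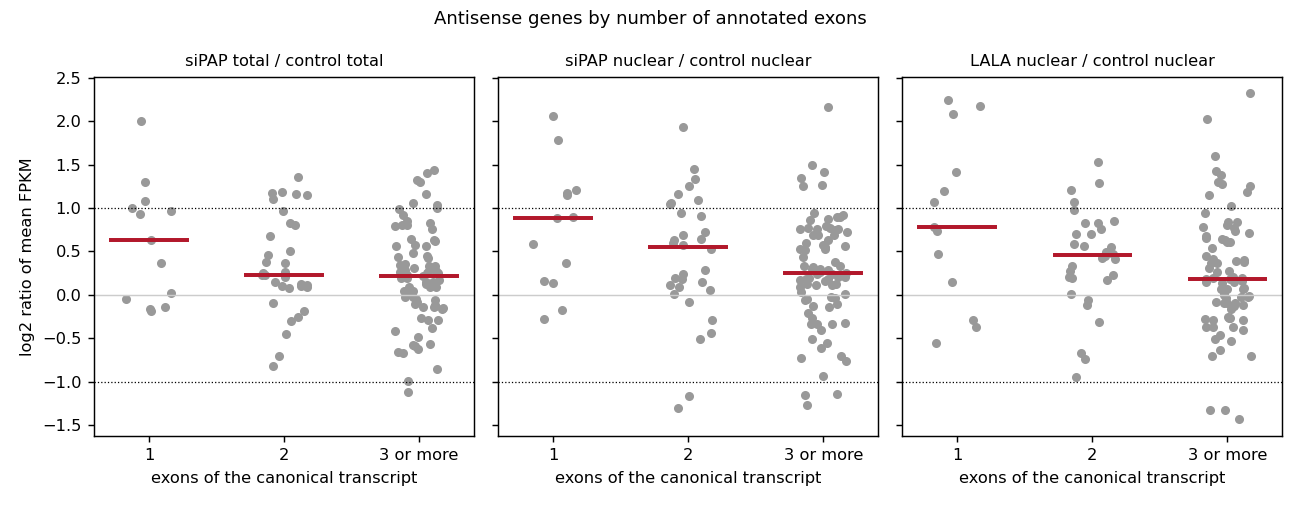
Log2 ratios of antisense entries in the 3 treatment comparisons (vertical axis) by the number of exons of their annotated canonical transcript (horizontal axis). Each point is 1 entry, spread sideways at random, and the red bar is the median, which for 1 exon is 0.63, 0.89 and 0.78 and for 3 or more exons 0.22, 0.25 and 0.18.

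Other noncoding names gave counts of a similar size. Of 43 entries named LINC (long intergenic noncoding) with a ratio, 6 were called higher in siPAP total RNA, and of 44 in each nuclear comparison 8 were higher in siPAP and 5 in LALA. Of 270, 271 and 270 entries with a provisional LOC name, 39, 56 and 55 were higher. As shares these were 14.0%, 18.2% and 11.4% for LINC and 14.4%, 20.7% and 20.4% for LOC, beside 11.2%, 14.5% and 16.7% for the antisense genes. A difference between these classes was not tested, and nothing in the counts is particular to the antisense names.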

How the data were processed

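The authors prepared polyadenylated RNA with a stranded mRNA kit, and the submitters' processing notes name TopHat2, Cuffdiff and edgeR and the build hg19. The deposited values used here are FPKM as the authors' means over the 2 libraries of each group, computed by Cuffdiff. No source used here gives reads per library, replicate values or the strand setting, and depth and error are therefore unknown. The deposited table also holds the authors' fold changes, test statistics, p-values and q-values, none of which was used.

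Ratios were the log2 of 2 mean FPKM values with no pseudocount, computed with Python 3.11.15, pandas 2.3.3 and numpy 2.4.6 (figures with matplotlib 3.10.9) and tested on simulated data. Calls needed a 2-fold difference and 1 FPKM in the larger mean. The background was every autosomal entry at 1 FPKM or more in any group. Members came from symbols, mapped to current names through RefSeq synonyms, and 129 were matched to GENCODE on hg19. Entry starts in the table count from 0 and were shifted by 1. The span given is that of the assembled cluster, which can include the partner. Genes named in the text are those called in all 3 treatment comparisons or lower in any, those with the 8 highest and 6 lowest mean ratios, the 8 most abundant, the 5 highest and 5 lowest nuclear ratios, the 5 with the widest gap between LALA and siPAP, the 3 on each side of the level rule, and the partners of these. Other genes named were chosen after their values were seen. The members, lists and rules were chosen with earlier results of these data known. Samples were grouped by their titles, and alternatives covered the level rule, pseudocount, fold threshold, centring, merged and repeated entries and strand numbering. Values of 1 entry called higher are not reported here.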

Additional observations from a re-analysis of the deposited data

How the results depend on the processing

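No paired analysis was possible because the table holds 1 mean per group and no replicate columns, and for the same reason no replicate could be left out and no value has an error. By their form the alternatives could not turn the direction of a called ratio, so they are no check of direction. The higher counts (siPAP total, siPAP nuclear, LALA nuclear) were 15, 19 and 22. They became 32, 44 and 43 at 1.5-fold and 0, 4 and 7 at 3-fold, among the same entries. With 5 FPKM in any group they were 9 of 47, 9 of 46 and 7 of 46 entries. With no level rule they were 46 of 273, 46 of 271 and 55 of 275. They were 3, 8 and 6 with a pseudocount of 1, which gives every member a ratio. With 1 FPKM in both controls they were 12 and 12 of 96 in the nuclear comparisons. Lower counts under these settings are out of the same numbers. Shares over all entries are not given here with 5 FPKM, no level rule or a pseudocount, so an excess over them cannot be judged there. The lower counts of 2, 6 and 2 became 8 and 8 (siPAP total and LALA) at 1.5-fold, 1, 0 and 0 at 3-fold and with 5 FPKM, 19, 21 and 19 with no level rule, and 0, 1 and 0 with a pseudocount of 1. In siPAP total RNA 1 was lower with 1 FPKM in both controls, and in LALA 1 was lower with each symbol once and 0 without entries numbered with the other strand, an alternative chosen after seeing the data. The LALA median of 0.29 became 0.18 with 1 FPKM in both controls, 0.45 centred on all entries and 0.18 with a pseudocount of 1, and the siPAP nuclear median 0.19 with no level rule. Nuclear against total counts of 1 higher and 1 lower in control cells became 10 and 6 at 1.5-fold and 0 and 0 at 3-fold. With no level rule they were 24 and 22 of 277 entries. The lower count was 0 of 46 with 5 FPKM and 0 of 96 with 1 FPKM in both controls. It was 3 with a pseudocount of 0.1 and 2 with 1. In siPAP cells 3 and 1 became 11 and 6 at 1.5-fold and 19 and 10 of 272 entries with no level rule. In the same cells 1 of 96 was higher with 1 FPKM in both controls. Also there, 0 were lower at 3-fold, with 5 FPKM (47 entries) and with either pseudocount. The counts thus depended on the threshold and on the handling of low levels, and the cause was not tested. Of the ratios of named genes, 41 of 118 lost or gained a call or moved by 0.5 with a pseudocount of 1, 5 with 0.1 and 3 when centred.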
